A study of Mus musculus with 13 samples.

Results

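Kainate receptors are glutamate-gated ion channels built from 4 subunits of the Grik family. The family has 5 genes in the mouse, Grik1 to Grik5, which were taken by symbol from the 32285 genes of the deposited matrices. They were followed across the cell classes of the hippocampus and across age and diet. The data are droplet RNA sequencing of single hippocampal nuclei from 13 female mice, each mouse giving 1 library, and the values are counts of unique molecular identifiers (UMIs). The mice were hybrids, C3B6F1 in the series text and C3HB6F1 in the sample labels. Young mice fed ad libitum were 5 months old (n = 3) and old mice fed ad libitum were 24 months old (n = 3). Acutely restricted mice were also 24 months old and had been on dietary restriction since 20 months (n = 3), and long-term restricted mice of that age had been restricted since 5 months (n = 4). All mice were of 1 sex and 1 hybrid background, so neither factor could be compared.

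The subunits fall into 2 kinds by function. Grik1, Grik2 and Grik3 encode GluK1, GluK2 and GluK3, the low-affinity subunits, which can form working channels without the other kind. Grik4 and Grik5 encode GluK4 and GluK5, the high-affinity subunits, which reach the membrane as working receptors only together with one of the low-affinity subunits. In the hippocampus these receptors are best known at the synapse between the mossy fibres of dentate granule neurons and CA3 pyramidal neurons, and in inhibitory interneurons, where GluK1 has a prominent part.

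All 5 genes are long. In build mm10 with the GENCODE M21 annotation, Grik1 (ENSMUSG00000022935) lies on chromosome 16 from 87895900 to 88290265 on the minus strand and spans 394.4 kb. Grik2 (ENSMUSG00000056073) lies on chromosome 10 from 49094833 to 49788766, also on the minus strand, and spans 693.9 kb. Within it, on the same strand, lie 2 long noncoding genes that have rows of their own in the matrix, Gm26543 and Gm47018, so reads there could have been assigned to either. Grik3 (ENSMUSG00000001985) lies on chromosome 4 from 125490700 to 125714173 on the plus strand and spans 223.5 kb. Grik4 (ENSMUSG00000032017) lies on chromosome 9 from 42518135 to 42944493 on the minus strand and spans 426.4 kb. Grik5 (ENSMUSG00000003378) is the short member, at 62.5 kb, on chromosome 7 from 25009849 to 25072346 on the minus strand. No annotated gene overlapped a member on the opposite strand. Grik2 was longer than 99.6% of the 32235 matrix genes with a known span, Grik4 than 99.0%, Grik1 than 98.8%, Grik3 than 97.2% and Grik5 than 85.5%.

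The libraries held 38546292 to 80538090 UMIs each, and the median nucleus held 3688 to 11195 UMIs depending on the library. After filtering and removal of doublets, 98041 nuclei remained, of which 83556 fell into 15 classes named from marker genes and called X-like here, and 14485 into 13 clusters that the markers did not name. Between any pair of libraries, 4 to 40 barcodes were shared, at most 0.471% of the smaller library. The 4 libraries numbered 1, 1 in each group, stood apart: oligodendrocyte-like nuclei made up 0.772 to 3.96% of their named nuclei, against 9.08 to 26.0% in the other 9. Calls that change without these libraries are given with and without them. Without them the ageing contrast sets old replicates 2 and 4 against young replicates 2 and 3. The variance between mice is then estimated over all 9 remaining libraries. Defining markers were clearly highest in several classes: in UMIs per 1000000 (CPM), Gad2 averaged 405 in inhibitory-like, Mog 995 in oligodendrocyte-like and Csf1r 851 in microglia-like nuclei, against 23.8, 9.22 and 210.2 in the next class. Aqp4 averaged 248 CPM in astrocyte-like, Drd2 48.5 in mossy cell-like and Pdgfra 663 in oligodendrocyte precursor-like nuclei, against 19.2, 4.07 and 179.8. Others separated less: Nectin3 was at 304 CPM in CA3-like and 164 in mossy cell-like nuclei, Fibcd1 at 38.8 in CA1-like and 22.8 in CA3-like, and Prox1 at 298 in granule-like nuclei, with oligodendrocyte-like next at 223. Subicular-like nuclei had 116 CPM of Fn1, which was at 565 in endothelial-like nuclei. The subunits themselves were left out of the clustering and of all marker lists.

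Levels are given as CPM of the summed UMIs of a class in a mouse, mean ± SD over mice with at least 20 nuclei of the class. Neighbouring classes in an order are said to lie within the spread where the mean of the within-mouse difference in log2(CPM + 1) was smaller than its SD. The classes come from clustering these same nuclei, so levels between classes are a description and were not tested.

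Grik1, the subunit known for interneurons, was highest in inhibitory-like nuclei, at 2087 ± 300 CPM (SD, n = 13; lowest 1662, median 2189, highest 2518). Subicular or cortical excitatory-like nuclei followed at 762 ± 293 CPM (lowest 379, median 765, highest 1370). Oligodendrocyte precursor-like nuclei held 462 ± 79.8 CPM and oligodendrocyte-like nuclei 255 ± 56.5 CPM. These 3 steps down the order of Grik1 levels each exceeded the spread, in 13, 12 and 13 of 13 mice. The principal excitatory classes held almost none: Grik1 was at 10.7 ± 4.12 CPM in CA1-like, 10.6 ± 8.62 in CA3-like and 4.04 ± 1.58 in granule-like nuclei, below the 17.7 ± 9.37 CPM of microglia-like nuclei. No step below oligodendrocyte-like nuclei exceeded the spread.

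Grik2, the most widely expressed low-affinity subunit, was high in many classes. Hilar mossy cell-like nuclei led at 2920 ± 195 CPM (n = 8; lowest 2596, median 2886, highest 3187), then inhibitory-like nuclei at 2668 ± 315 (n = 13; lowest 2220, median 2775, highest 3319) and granule-like nuclei at 2469 ± 227 (n = 13; lowest 2031, median 2479, highest 2860). CA3-like nuclei held 1599 ± 179 CPM and CA1-like nuclei 1105 ± 115 CPM of Grik2. Among glia, Grik2 was at 1550 ± 147 CPM in oligodendrocyte precursor-like, 1238 ± 153 in oligodendrocyte-like and 736 ± 179 in astrocyte-like nuclei, and it was lowest in microglia-like nuclei at 216 ± 135 CPM. Only 3 steps of the Grik2 order exceeded the spread: mossy cell-like above inhibitory-like, granule-like above CA3-like, and oligodendrocyte precursor-like above oligodendrocyte-like nuclei.

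Grik3, the third low-affinity subunit, had its highest level in subicular or cortical excitatory-like nuclei, at 356 ± 67.1 CPM (n = 13; lowest 245, median 346, highest 463). Oligodendrocyte precursor-like nuclei held 143 ± 31.1 CPM, inhibitory-like nuclei 97.8 ± 19.5 and granule-like nuclei 65.5 ± 7.03 (lowest 53.8, median 69.3, highest 72.1). Grik3 stood at 25.7 ± 11.8 CPM in CA1-like and 25.6 ± 17.6 in CA3-like nuclei, and at 3.47 ± 1.75 in astrocyte-like nuclei. The steps from subicular-like to oligodendrocyte precursor-like and from there to inhibitory-like nuclei exceeded the spread, as did that from oligodendrocyte-like (13.2 ± 4.74 CPM) to microglia-like nuclei (3.97 ± 4.91 CPM).

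The high-affinity Grik4 was highest in CA3-like nuclei and in the dentate classes. CA3-like nuclei held 888 ± 256 CPM (n = 13; lowest 431, median 958, highest 1229), mossy cell-like nuclei 533 ± 111 (n = 8; lowest 351, median 535, highest 672) and granule-like nuclei 397 ± 74.8 (n = 13; lowest 272, median 421, highest 534). Both steps exceeded the spread. Oligodendrocyte precursor-like nuclei, at 374 ± 57.2 CPM, lay within the spread of granule-like nuclei. CA1-like nuclei held only 117 ± 39.4 CPM of Grik4, close to the 124 ± 33.6 of oligodendrocyte-like and the 88.1 ± 15.8 of inhibitory-like nuclei.

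Grik5, the other high-affinity subunit, varied least over the neuronal classes. It was at 165 ± 26.2 CPM in CA3-like (lowest 119, median 172, highest 206), 149 ± 52.3 in mossy cell-like, 129 ± 16.1 in CA1-like, 113 ± 8.50 in granule-like and 81.3 ± 8.83 in inhibitory-like nuclei. Astrocyte-like nuclei held 85.0 ± 11.8 CPM of Grik5 and oligodendrocyte-like nuclei 39.1 ± 10.6. The steps from CA1-like to granule-like and from granule-like to oligodendrocyte precursor-like nuclei (93.7 ± 11.2 CPM) exceeded the spread, and so did that from oligodendrocyte-like to microglia-like nuclei (14.0 ± 10.1 CPM).

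**Figure D1:**
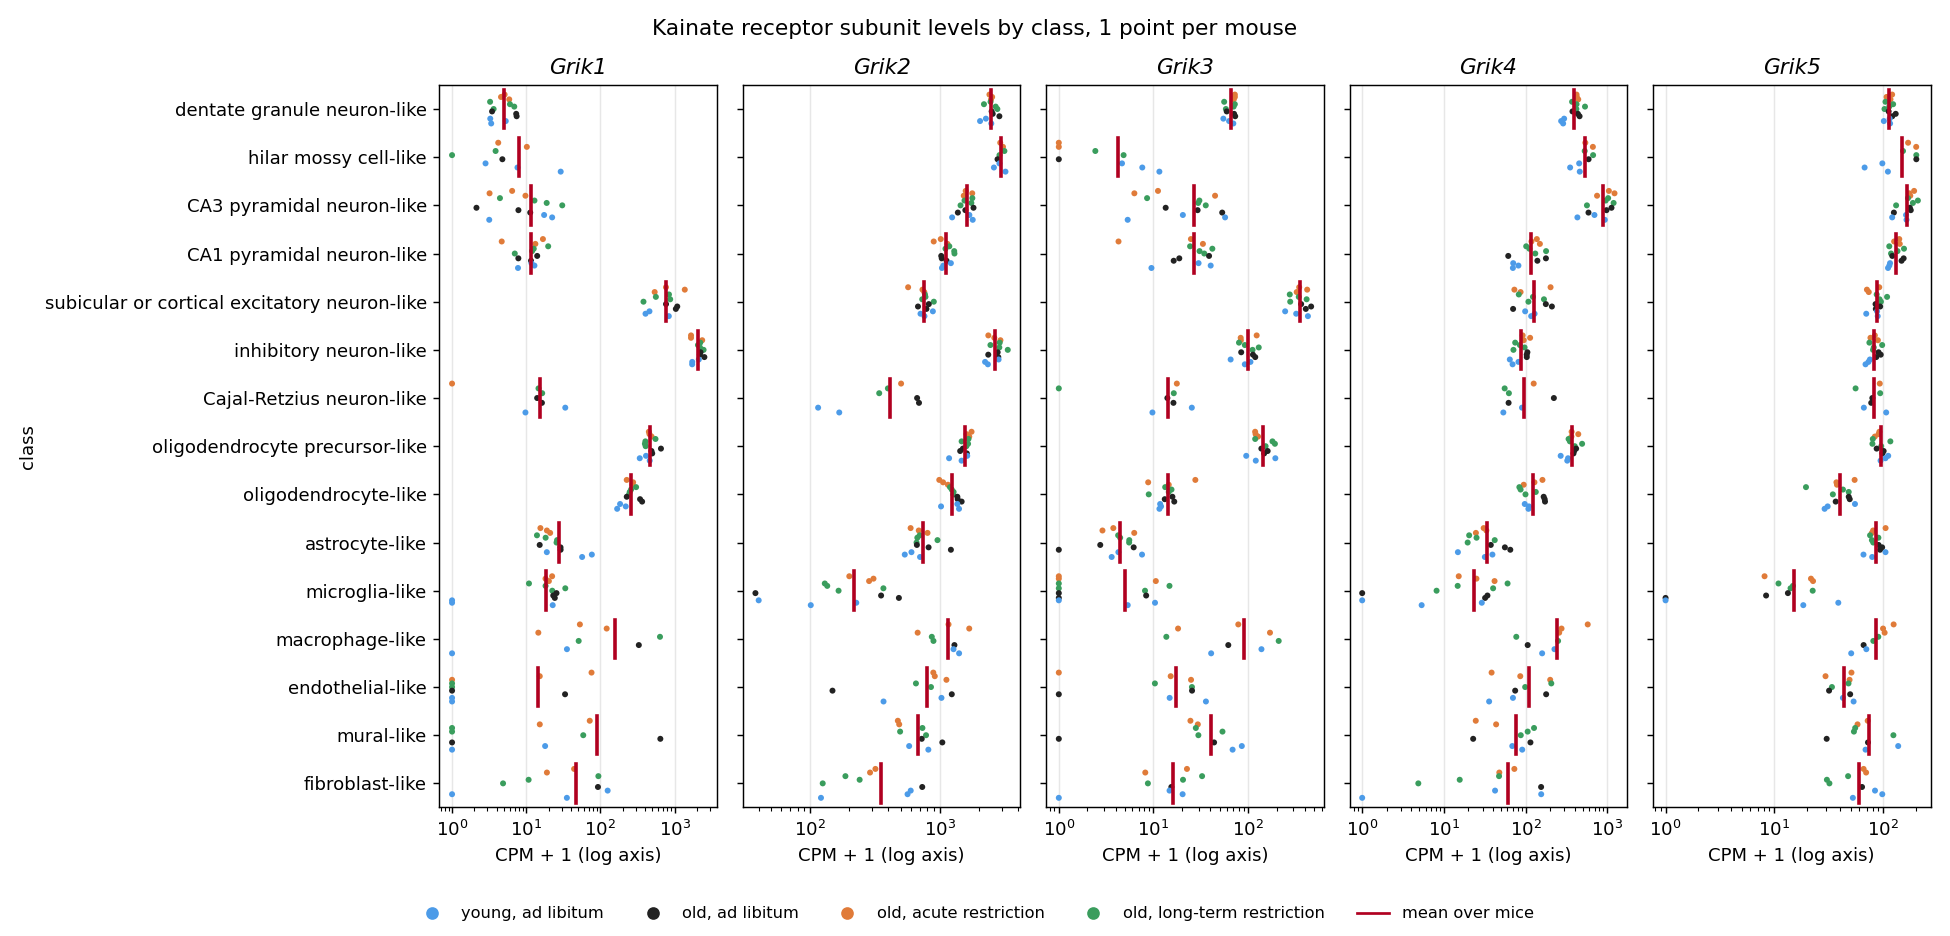
Level of each subunit as CPM + 1 on a log axis (horizontal) in each of the 15 classes (vertical); a point is a mouse, coloured by group, and the red line is the mean over mice. Grik1 peaks in inhibitory-like nuclei at 2087 CPM, Grik2 in mossy cell-like at 2920, Grik3 in subicular-like at 356, and Grik4 and Grik5 in CA3-like nuclei at 888 and 165.

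Because the genes differ in length, levels between subunits were compared as CPM per kb of gene span. On that scale Grik1 led inhibitory-like nuclei at 5.29 CPM per kb, ahead of Grik2 at 3.84, Grik5 at 1.30, Grik3 at 0.438 and Grik4 at 0.207. In granule-like nuclei Grik2 led at 3.56 CPM per kb, followed by Grik5 at 1.80, Grik4 at 0.930, Grik3 at 0.293 and Grik1 at 0.0102. CA3-like nuclei had 3 subunits at a similar level per length, Grik5 at 2.64, Grik2 at 2.30 and Grik4 at 2.08 CPM per kb, with Grik3 at 0.115 and Grik1 at 0.0268. In CA1-like nuclei the same pair led, Grik5 at 2.06 and Grik2 at 1.59 CPM per kb, but Grik4 was at 0.274. Whether intronic reads were counted is not given in the sources used here, so the span may overstate the length that could yield UMIs. These orders depend on dividing by the span. In CPM alone, CA3-like nuclei had Grik2 at 1599, Grik4 at 888 and Grik5 at 165. CA1-like nuclei had Grik2 at 1105 and Grik5 at 129, and granule-like nuclei had Grik4 at 397 and Grik5 at 113. In inhibitory-like nuclei Grik2, at 2668 CPM, was above Grik1, at 2087. Which scale lies nearer to transcript number was not tested.

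Free RNA in the droplets gives UMIs to nuclei that do not express a gene, so the share of nuclei with a UMI was taken after thinning every nucleus to 1500 UMIs and read against microglia-like nuclei, where all 5 subunits were low. Thinning left out 979 of 1624 microglia-like nuclei (median 1402.5 UMIs before thinning) but only 155 of 38981 granule-like nuclei (median 6362 UMIs). Grik1 was then detected in 76.8% of inhibitory-like nuclei (91.1% unthinned), 43.1% of oligodendrocyte precursor-like, 24.9% of oligodendrocyte-like (27.3% unthinned) and 0.634% of granule-like nuclei (2.61% unthinned), against 2.64% of microglia-like nuclei (2.71% unthinned). Grik1 in granule-like nuclei is therefore at background. Grik2 was detected in 96.0% of granule-like (99.9% unthinned) and 77.7% of oligodendrocyte-like nuclei, against 28.1% of microglia-like nuclei (27.0% unthinned). Grik4 was detected in 64.1% of CA3-like (91.9% unthinned), 42.4% of granule-like (84.1% unthinned), 16.9% of oligodendrocyte-like and 14.5% of CA1-like nuclei, against 3.72% of microglia-like nuclei. Grik3 reached 38.9% of subicular-like nuclei (89.9% unthinned) against 0.930%, and Grik5 21.5% of CA3-like nuclei (79.8% unthinned) against 1.55%. Summed over all nuclei of a library, the level was 194 ± 62.8 CPM for Grik1, 1859 ± 157 for Grik2 and 304 ± 44.7 for Grik4. Oligodendrocyte-like nuclei thus lay above the library level for Grik1 (255 CPM) and below it for Grik2 (1238 CPM) and Grik4 (124 CPM).

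Inhibitory interneurons are a mixed population, and clustering the 5075 inhibitory-like nuclei again gave 5 marker-named subtypes of 723 to 1049 nuclei. Grik1 was highest in Lamp5-like nuclei at 3318 ± 505 CPM (n = 13; lowest 2522, median 3414, highest 4116) and somatostatin-like nuclei at 3165 ± 568 (n = 12; lowest 2095, median 3192, highest 4081). The Cnr1 and Cck-like (1683 ± 431 CPM), Vip-like (1485 ± 204) and parvalbumin-like nuclei (1428 ± 304) formed a lower tier, and the step from somatostatin-like to Cnr1 and Cck-like nuclei exceeded the spread in 12 of 12 mice. Grik2 varied less, from 3326 ± 414 CPM in Lamp5-like and 3267 ± 545 in Vip-like to 2014 ± 423 in parvalbumin-like nuclei.

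Grik3 and Grik4 were each high in a single subtype. Grik3 was at 279 ± 67.1 CPM in somatostatin-like nuclei (n = 12; lowest 195, median 258, highest 407), above the 79.4 ± 20.2 of Vip-like nuclei in 12 of 12 mice. Lamp5-like nuclei, which lay within the spread of somatostatin-like nuclei in Grik1, held 4.63 ± 3.89 CPM of Grik3 (n = 13; lowest 0, median 3.27, highest 13.3), and after thinning 0.865% of them had a Grik3 UMI, a share below the 0.930% of microglia-like nuclei. Grik4 was at 212 ± 45.8 CPM in Vip-like nuclei (n = 13; lowest 162, median 206, highest 324), above the 69.7 CPM of Cnr1 and Cck-like nuclei in 13 of 13 mice, while the other 4 subtypes lay between 39.5 and 69.7 CPM. Grik5 ranged only from 67.2 to 94.5 CPM, with no step beyond the spread.

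**Figure D2:**
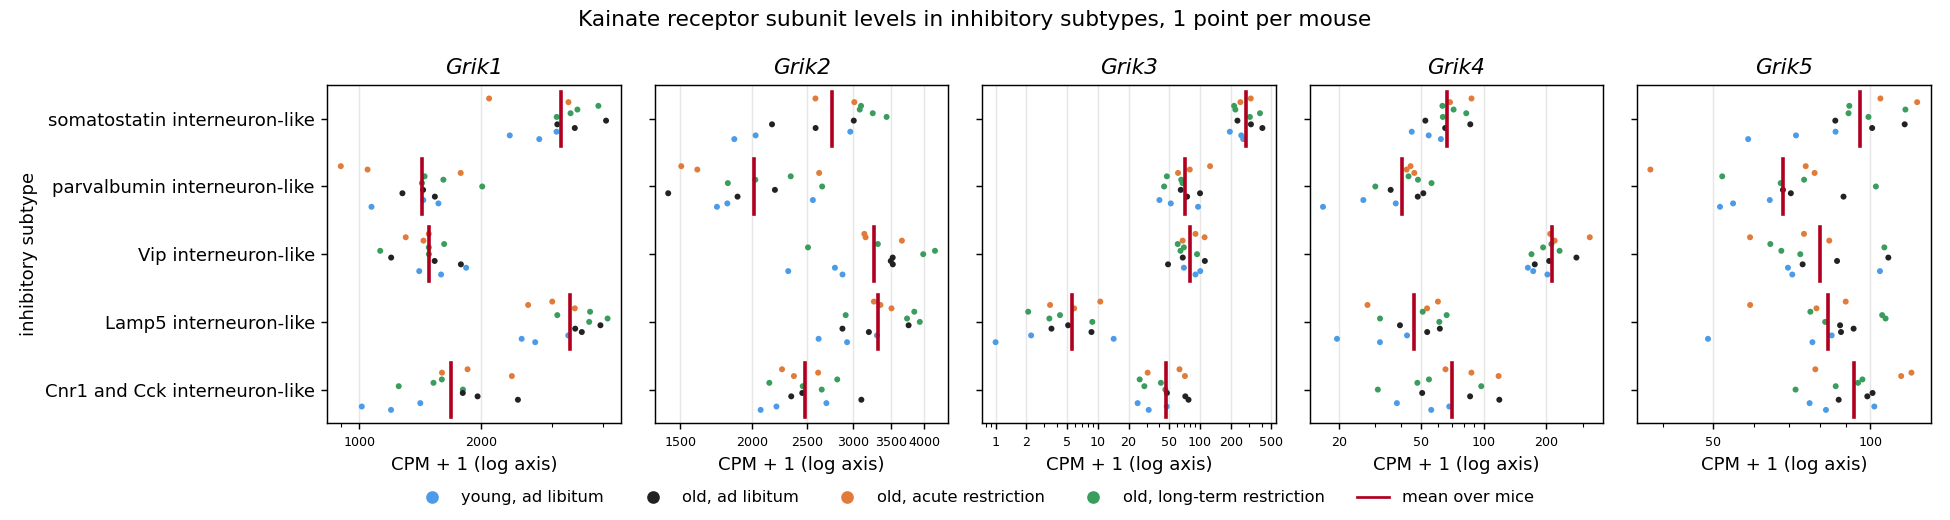
Level of each subunit as CPM + 1 on a log axis (horizontal) in the 5 inhibitory subtypes (vertical); a point is a mouse, coloured by group, and the red line is the mean over mice. Lamp5-like and somatostatin-like nuclei share high Grik1 (3318 and 3165 CPM) but differ in Grik3 (4.63 and 279 CPM), and Vip-like nuclei stand out in Grik4 (212 CPM).

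Within CA1-like nuclei, 3 clusters differed in their subunits. The cluster led by Cpne7 and Dcn had 182 CPM of Grik4 and 26.2 of Grik1, against 80.1 and 3.57 in the cluster led by Stac and Man1a and 82.9 and 3.91 in the cluster led by Prlr and Wfs1. The Stac and Man1a cluster was the low one for Grik2, at 876 CPM against 1333 and 1300, and for Grik3, at 2.63 CPM against 44.1 and 41.1. Among the 4 granule-like clusters Grik2 ranged from 2012 CPM in the cluster led by Dsp and Stra6 to 2902 in that led by Trpc6 and Stxbp6, while Grik5 moved only from 109 to 117 CPM.

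The genes whose class pattern was most like that of each subunit were ranked by Pearson's r of mean log2(CPM + 1) over the 15 classes, among 12018 genes, as a description. For Grik1 they were Alk (0.937), Elfn1 (0.931) and Nxph1 (0.875), of which Elfn1 and Nxph1 are in the marker lists that named the classes. For Grik2 they were Tmem132b (0.930), Fam57a (0.867) and Otud7a (0.862), and for Grik3 Sgcz (0.942), Pdzrn4 (0.914) and 4930588J15Rik (0.911). For Grik4 they were Tmem108 (0.885), 4930532I03Rik (0.879) and Csmd2 (0.874), and for Grik5 Slc25a23 (0.944), Mok (0.939) and Cfap300 (0.939). Between the subunits, r over the classes was 0.799 for Grik2 with Grik4, 0.733 for Grik4 with Grik5, 0.698 for Grik2 with Grik5 and 0.632 for Grik1 with Grik3. The remaining pairs were lower: Grik3 was at 0.374 with Grik2, 0.366 with Grik5 and 0.363 with Grik4. Grik1 was at 0.215 with Grik2, -0.01 with Grik5 and -0.03 with Grik4. The points of these correlations share libraries and depth.

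The first contrast asked what differed between old and young mice fed ad libitum. UMIs were summed per mouse in 11 classes and tested with edgeR's quasi-likelihood test over all genes, and a pair of a subunit and a class is said to be called where its Benjamini-Hochberg adjusted p was below 0.05. Of 55 pairs, 43 passed the filter on low counts. With age, 3 of these 43 pairs rose and none fell: Grik4 in granule-like nuclei, and Grik4 and Grik1 in oligodendrocyte-like nuclei. Of all 107870 pairs of a gene and a class, 1.51% were called in either direction and 0.837% were called higher, with 2.99% of genes called in granule-like nuclei and 7.6% in oligodendrocyte-like nuclei.

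Grik4 in granule-like nuclei, the source of the mossy fibres, measured 296, 272 and 288 CPM in the young mice and 375, 437 and 458 CPM in the old. Every old mouse lay above every young mouse, and the means were 423 ± 43.2 and 285 ± 12.1 CPM. The edgeR log2 fold change was 0.73 (SE 0.14, a 1.66-fold rise; adjusted p = 0.0286), and with library totals in place of TMM scaling factors it was 0.57 (adjusted p = 0.0419). Over the libraries not numbered 1 it was 0.87 (adjusted p = 0.00693), while without old replicate 2 or 4 or young replicate 2 the edgeR log2 fold change was 0.72, 0.69 and 0.65 (adjusted p = 0.148, 0.130 and 0.0985), and with the 2 groups alone in the fit 0.72 (adjusted p = 0.0633). The acutely restricted mice stood at 421, 423 and 441 CPM and the long-term restricted at 371, 421, 534 and 419 CPM, all above the young mice. Fitted alone, 3 of the 4 granule clusters gave an adjusted p below 0.05 for Grik4 in edgeR, with log2 fold changes of 0.62, 0.58 and 0.72 (background 0.845, 2.23 and 1.56% of genes called), and the fourth gave 0.45 (adjusted p = 0.0614, background 1.17%). Over the 4 clusters together 1.45% of pairs of a gene and a cluster were called.

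Grik4 in oligodendrocyte-like nuclei was at 96.9, 109 and 108 CPM in young and 166, 171 and 172 CPM in old mice, again without overlap. The edgeR log2 fold change was 0.68 (SE 0.19, a 1.60-fold rise; adjusted p = 0.0241), and young replicate 1, a library numbered 1, contributed only 9 UMIs. Over the 9 libraries not numbered 1 the Grik4 change was 0.64 (adjusted p = 0.0533), and DESeq2 gave 0.69 (adjusted p = 0.0793). Without old replicate 2 or 4, or without young replicate 2 or 3, the edgeR log2 fold change was 0.69, 0.68, 0.74 and 0.72 (adjusted p = 0.0825, 0.0663, 0.127 and 0.0670).

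Grik1 in oligodendrocyte-like nuclei was at 183, 219 and 167 CPM in young and 225, 341 and 364 CPM in old mice. The groups were apart by a narrow margin, since old replicate 1 lay just above the highest young mouse, and young replicate 1 held 17 UMIs. The edgeR log2 fold change was 0.76 (SE 0.16, a 1.69-fold rise; adjusted p = 0.00359), and over the libraries not numbered 1 it was 0.86 (adjusted p = 0.00131).

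**Figure D3:**
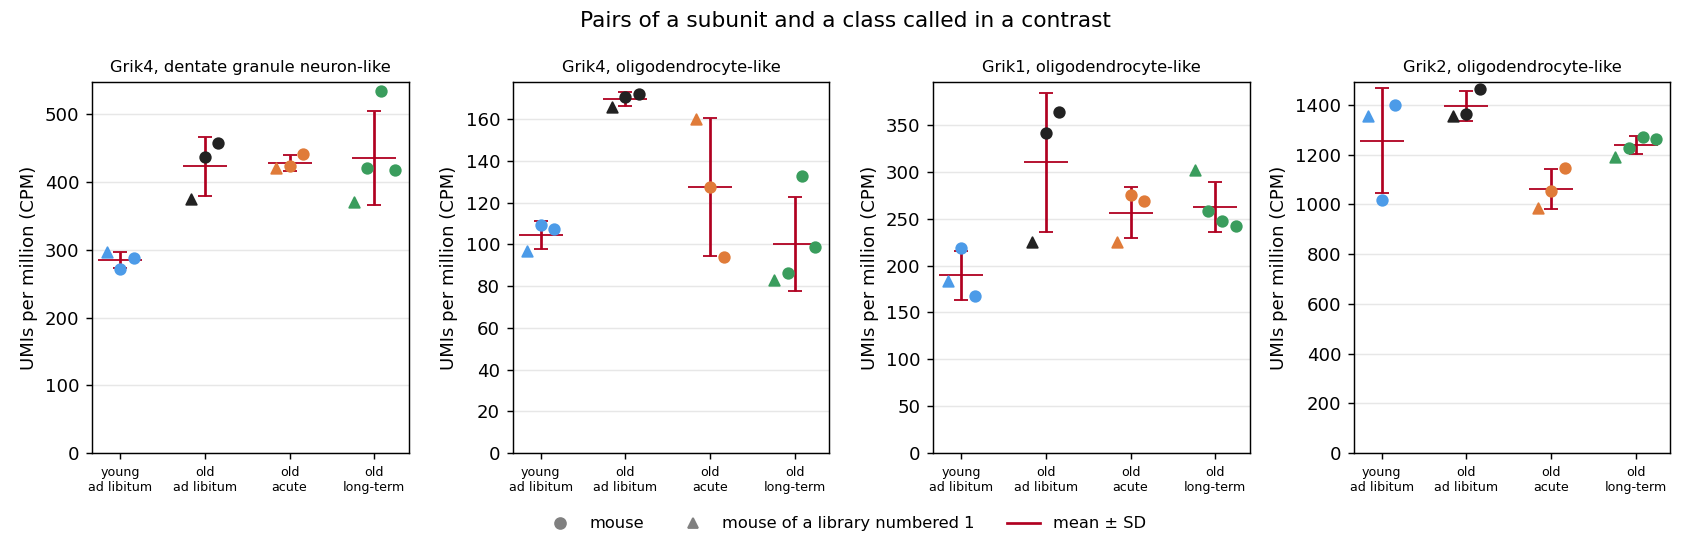
Level in CPM (vertical, linear from 0) of the pairs of a subunit and a class called in a contrast, by group; a point is a mouse, a triangle a mouse of a library numbered 1, and the red marks are mean ± SD. Grik4 in granule-like nuclei is at 272 to 296 CPM in young and 375 to 458 in old ad libitum mice, and Grik4 in oligodendrocyte-like nuclei is at 166 to 172 CPM in old ad libitum mice, above all young mice.

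Gene length moved with these results. Over all classes, 78.0% of the 9424 pairs whose gene spans at least 200 kb were higher in old mice and 5.71% were called, against 47.8% higher and 1.51% called over all genes, and 39 of the 43 subunit pairs (90.7%) were higher. In the classes of the 3 calls, 253 of 892 such long genes were called and 772 were higher in oligodendrocyte-like nuclei, and 173 of 1060 were called and 833 higher in granule-like nuclei. With the trend of fold change with gene length removed from each library, 28 of 43 subunit pairs (65.1%) were higher and none of the 3 calls was kept in edgeR. Of the pairs spanning at least 200 kb, 50.5% were higher in that fit and 1.68% were called. Grik4 in granule-like nuclei then had a log2 fold change of 0.41 (adjusted p = 0.0759), Grik4 in oligodendrocyte-like nuclei 0.11 (adjusted p = 0.854) and Grik1 there 0.18 (adjusted p = 0.712). Grik2 in oligodendrocyte-like nuclei changed direction, from 0.22 (adjusted p = 0.320) to -0.56 (adjusted p = 0.0156). Among the 892 long genes of that class 381 were then higher, with a median log2 fold change of -0.09, and 122 were still called.

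Depth per nucleus also differed between the ages. The median granule-like nucleus held 3878 to 6566.5 UMIs in young and 7103 to 12958 in old mice, and the median oligodendrocyte-like nucleus 1181.5 to 1743 and 1990 to 3169 UMIs. The ranges of young and old mice did not overlap in either class. A fit with the median as a covariate therefore cannot tell depth from age. In that fit edgeR gave a log2 fold change of 0.55 for Grik4 in granule-like nuclei (unadjusted p = 0.00934, adjusted p = 0.609). For oligodendrocyte-like nuclei it gave 0.44 for Grik4 (adjusted p = 0.887) and 1.23 for Grik1 (adjusted p = 0.0327). Markers of other cells were present as well. In oligodendrocyte-like nuclei the 8 granule markers, none at 0, summed to 3433 to 4255 CPM in young and 4413 to 4580 in old mice, with 5 of 8 higher in the old mean. The 8 CA3 markers summed to 49.7 to 71.1 and 75.2 to 91.7 CPM there, with 5 of 8 higher, and the 8 precursor markers to 517 to 556 and 401 to 488 CPM, with 4 of 8 higher. The 9 inhibitory markers there summed to 1965 to 2994 CPM in young and 2245 to 2698 in old mice, with 6 of 9 higher. The 7 CA1 markers summed to 70.6 to 237 and 54.5 to 81.4 CPM, with 5 of 7 higher. The 10 astrocyte markers summed to 262 to 571 and 343 to 384 CPM, with 4 of 10 higher. The 8 microglia markers summed to 21.5 to 91.6 and 34.3 to 54.5 CPM, with 2 of 8 higher. The 10 subicular or cortical markers summed to 179 to 210 and 196 to 229 CPM, with 6 of 10 higher. In granule-like nuclei the 8 precursor markers summed to 741 to 794 CPM in young and 909 to 978 in old mice, with 4 of 8 higher in the old mean, and the 8 CA3 markers to 417 to 522 and 534 to 549 CPM, with 3 of 8 higher. The 9 oligodendrocyte markers there summed to 79.0 to 111 and 102 to 144 CPM, with 8 of 9 higher, and the 9 inhibitory markers to 1519 to 2001 and 1933 to 2136 CPM, with 6 of 9 higher. The 10 subicular or cortical markers there summed to 295 to 337 and 335 to 361 CPM, with 5 of 10 higher. Other lists overlapped between the ages or were lower in granule-like nuclei of old mice. The 10 astrocyte markers summed to 864 to 1084 and 866 to 1072 CPM, with 3 of 10 higher. The 8 microglia markers summed to 51.3 to 228 and 33.3 to 57.1 CPM, with 2 of 8 higher, and the 7 CA1 markers to 17.7 to 27.9 and 19.1 to 27.2 CPM, with 3 of 7 higher. Such a sum may also hold a class's own expression of the genes, so it does not measure RNA from other cells. The 8 granule markers summed to only 609 to 767 CPM in young and 735 to 800 in old precursor-like nuclei. The part of other cells' RNA in these sums and in the Grik1 and Grik4 results was not tested.

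Counts of pairs whose groups did not overlap were made on the TMM-scaled log2 CPM of the fit, which can differ from the unscaled CPM printed here. On that scale old and young mice did not overlap in 13 pairs with the old higher, the 3 called pairs among them, where 12% of all pairs did so, and in none with the old lower, where 9.22% did. Grik2 in astrocyte-like and Grik5 in granule-like nuclei are among the 13 but overlapped in unscaled CPM, while Grik4 in endothelial-like nuclei overlapped only on the scaled values. An unadjusted p below 0.05 was reached in 17 of the 43 pairs, 16 of them higher, against 17.6% of all pairs. By subunit, the estimate was higher in old mice in 9 of 9 classes for Grik4 (median log2 fold change 0.68), 7 of 7 for Grik3, 10 of 11 for Grik2, 7 of 8 for Grik5 and 6 of 8 for Grik1. With library totals in place of TMM factors, 36 of the 43 pairs were higher.

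**Figure D4:**
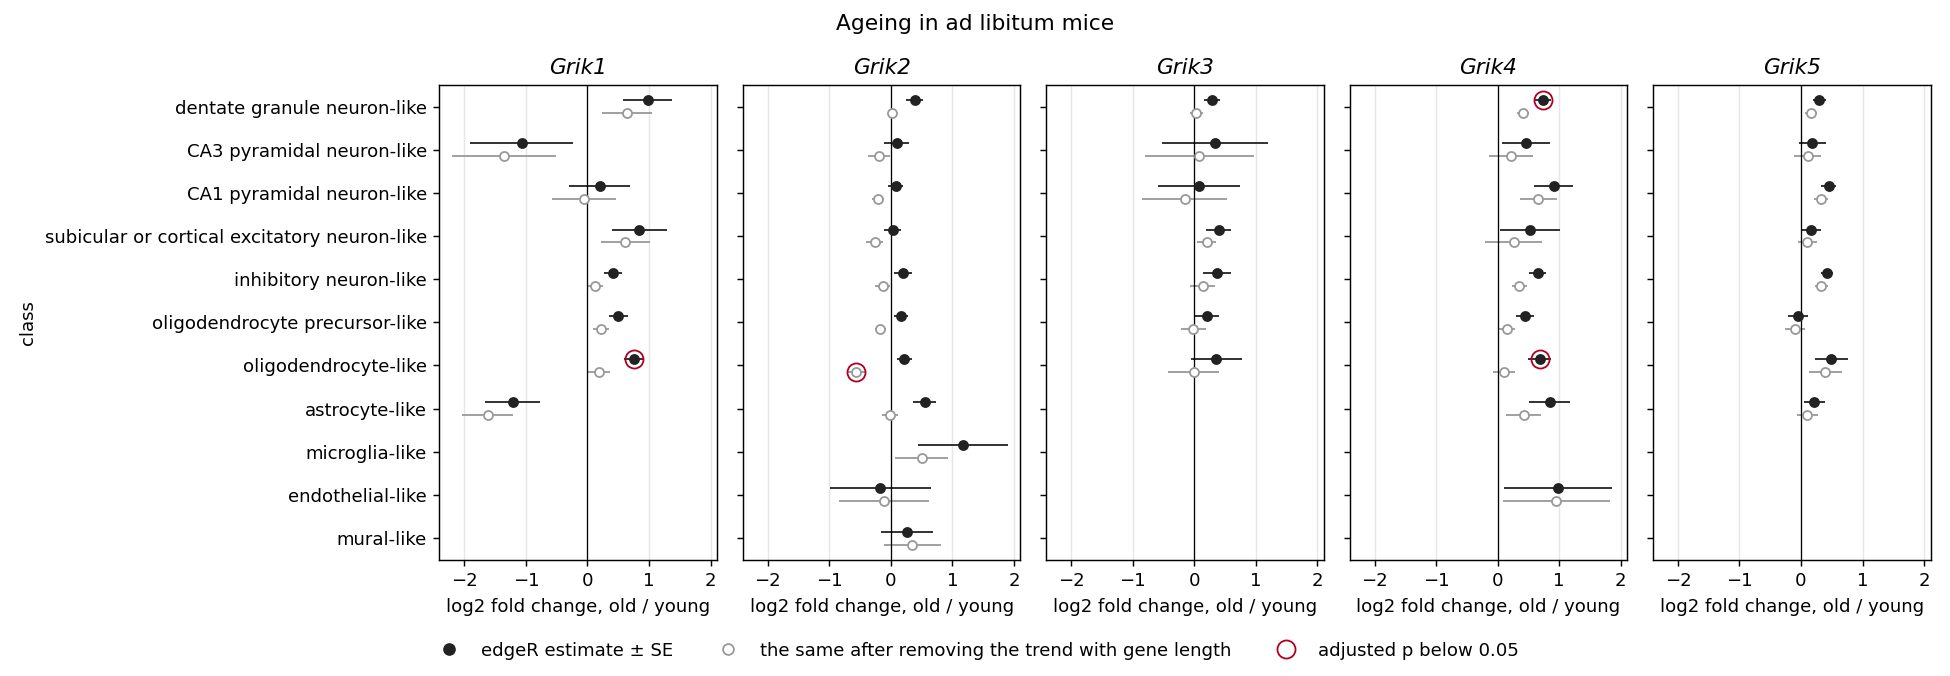
Log2 fold change between old and young mice fed ad libitum (horizontal) for each subunit and class (vertical), as the edgeR estimate ± SE (filled) and after removing the trend with gene length (open); red circles mark an adjusted p below 0.05. Of 43 filled points 39 lie above 0, and of the open points 28.

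In inhibitory-like nuclei the main edgeR fit (group only, all libraries) called neither high-affinity subunit, and DESeq2 called both. The main fit called 0.0974% of genes there, and the DESeq2 share was not set beside it. With the replicate number as a block edgeR called Grik4 (0.73, adjusted p = 0.00999) and Grik5 (0.46, adjusted p = 0.0311). Without the filter on low counts it called Grik4 (0.71, adjusted p = 0.00624). Grik4 was at 63.3, 81.0 and 68.4 CPM in young and 104, 102 and 103 CPM in old mice, without overlap, at a log2 fold change of 0.65 (edgeR adjusted p = 0.0755; DESeq2 0.00580). Grik4 there was called in edgeR with a term for the libraries numbered 1 (0.66, adjusted p = 0.0111) and over the libraries not numbered 1 (0.58, adjusted p = 0.0475), but not with the gene length trend removed (0.35, adjusted p = 0.362) or with depth per nucleus as a covariate (0.58, adjusted p = 0.587). Grik5 was at 74.2, 71.9 and 67.5 CPM in young and 89.3, 93.5 and 85.0 CPM in old mice, at 0.42 (edgeR adjusted p = 0.0967; DESeq2 0.0388), and with a term for the libraries numbered 1 the edgeR adjusted p was 0.0308. With the length trend removed Grik5 was at 0.33 (edgeR adjusted p = 0.358) and with the depth covariate at 0.44 (adjusted p = 0.587). Grik1, their most abundant low-affinity subunit per length but not in CPM, was at 2119, 1727 and 1723 CPM in young and 2235, 2189 and 2518 CPM in old mice, at 0.41 (edgeR adjusted p = 0.149). In the 5 inhibitory subtypes fitted alone, edgeR called none of 24 pairs with age (lowest adjusted p = 0.216; 8 at an unadjusted p below 0.05), where 0.0123% of all pairs were called, and DESeq2 was not run on them. Over all genes, 812 to 1195 per subtype were at an unadjusted p below 0.05, of 6561 to 9237 tested.

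In the classes where each subunit peaked, no tested pair was called with age. Hardly any gene was called there: 0 of 12165 in CA3-like, 1 of 10125 in subicular-like and 13 of 13352 in inhibitory-like nuclei. Grik4 in CA3-like nuclei varied widely within groups, at 698, 431 and 935 CPM in young and 1129, 980 and 589.7 CPM in old mice, so the groups overlapped (log2 fold change 0.46, edgeR adjusted p = 0.617). Grik3 in subicular-like nuclei was at 245, 321 and 428 CPM in young and 363, 463 and 406 CPM in old mice (0.40, edgeR adjusted p = 0.427). Grik5 in CA3-like nuclei was at 161, 119 and 162 CPM in young and 174, 177 and 124 CPM in old mice, with overlap (0.19, edgeR adjusted p = 0.731). Grik2 in granule-like nuclei, the third class in its order, was at 2252, 2031 and 2479 CPM in young and 2493, 2542 and 2860 CPM in old mice, with the old just above the young (0.39, edgeR adjusted p = 0.107). Hilar mossy cell-like nuclei, where Grik2 peaked, reached 20 nuclei in 8 of 13 libraries and were not tested.

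Grik1 in astrocyte-like nuclei had the opposite sign from most pairs. It was at 17.9, 75.6 and 55.7 CPM in young and 14.2, 28.0 and 28.1 CPM in old mice, at a log2 fold change of -1.22 (edgeR adjusted p = 0.235), and the low young value came from the library numbered 1. Over the 9 libraries not numbered 1 it was called, at -1.21 (edgeR adjusted p = 0.0219), whereas with depth per nucleus as a covariate over all libraries it was -0.20 (edgeR adjusted p = 0.972). After thinning, 3.29% of astrocyte-like nuclei had a Grik1 UMI (5.73% unthinned), close to the 2.64% of microglia-like nuclei (2.71% unthinned).

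Further pairs, all higher in old mice and not called in the main edgeR fit (group only, all libraries), were called once the libraries numbered 1 were left out or given a term. Over the libraries not numbered 1 these were Grik4 in CA1-like nuclei (1.20, adjusted p = 0.0266, against 0.91 and 0.272 over all), Grik2 in astrocyte-like nuclei (0.67, adjusted p = 0.0490, against 0.55 and 0.201) and Grik1 in granule-like nuclei (1.15, adjusted p = 0.0425, against 0.98 and 0.149), the last at a level that detection put at background. With the term they were Grik1 in granule-like nuclei (0.93, adjusted p = 0.0481) and, in oligodendrocyte precursor-like nuclei, Grik1 (0.49, adjusted p = 0.0153, against 0.50 and 0.0758) and Grik4 (0.44, adjusted p = 0.0393, against 0.44 and 0.0996). None of these 5 pairs was called over all libraries with the length trend removed or with depth as a covariate. Some were called in other edgeR fits over all libraries. With the replicate number as a block these were Grik1 (0.57, adjusted p = 0.00719) and Grik4 (0.50, adjusted p = 0.0316) in precursor-like and Grik2 in astrocyte-like nuclei (0.59, adjusted p = 0.0385). Without the filter on low counts both precursor pairs were called, and with doublets kept Grik1 there. The share of all genes called in these alternative fits was not set beside them. With the length trend removed Grik2 in astrocyte-like nuclei was at -0.01, Grik4 in CA1-like at 0.66 and Grik1 in granule-like at 0.64, and Grik1 and Grik4 in precursor-like nuclei at 0.22 and 0.15. With the depth covariate the same pairs were at 0.63, 1.29, 1.51, 0.25 and 0.18.

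The proteins that bind, traffic, place or edit kainate receptors were followed as a list of 23 genes, 22 of them in the matrix. Of 191 pairs of such a gene and a class, 4 rose with age and none fell in edgeR, and 115 (60.2%) were higher, where 1.51% of all pairs were called, 0.837% called higher, and 47.8% were higher. Nrxn3, a presynaptic adhesion molecule, was at 1195 ± 105 CPM in young and 2269 ± 295 in old granule-like nuclei (log2 fold change 1.09, adjusted p = 0.00432), and at 79.9 and 299 CPM in oligodendrocyte-like nuclei (1.99, adjusted p = 0.0419). Grip1, a scaffold that binds receptor tails, was at 16.1 and 41.2 CPM in oligodendrocyte-like nuclei (1.70, adjusted p = 0.0144), from only 2 to 13 UMIs per young mouse. Neto1, an auxiliary subunit of the receptor, was at 300.1 and 408 CPM in oligodendrocyte precursor-like nuclei (0.51, adjusted p = 0.0437). With the gene length trend removed, none of the 4 was called (edgeR adjusted p from 0.0697 to 0.256), and none with depth per nucleus as a covariate, where the log2 fold changes were 1.13 and 1.83 for Nrxn3 in granule-like and oligodendrocyte-like nuclei, 2.03 for Grip1 and 0.46 for Neto1 (0.136 to 0.756). Over the libraries not numbered 1, Nrxn3 in granule-like nuclei (1.21, edgeR adjusted p = 0.00132) and Grip1 (1.84, adjusted p = 0.0294) were called, but Neto1 (0.40, adjusted p = 0.155) and Nrxn3 in oligodendrocyte-like nuclei (2.14, adjusted p = 0.102) were not. In the other 3 contrasts edgeR called none of the 191 pairs, with 5, 12 and 10 at an unadjusted p below 0.05 for long-term restriction, acute restriction and long-term minus acute, where 4.71, 4.89 and 3.09% of all pairs were.

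The second contrast set long-term restricted mice against old mice fed ad libitum. It shares the old ad libitum mice with the ageing contrast, so a high or low value there moves both, and no comparison between the contrasts is drawn. Here 1 of 43 pairs was called, Grik4 in oligodendrocyte-like nuclei, which fell; of all pairs 0.0482% were called in either direction and 0.0306% were called lower, with 0.343% of genes called in oligodendrocyte-like nuclei. Its levels were 166, 171 and 172 CPM in the old ad libitum mice and 83.1, 86.1, 133 and 99.0 CPM after long-term restriction, without overlap. The edgeR log2 fold change was -0.75 (SE 0.16, 0.596-fold; adjusted p = 0.0282). Over the libraries not numbered 1 it was -0.67 (adjusted p = 0.0936), with the gene length trend removed -0.53 (adjusted p = 0.127) and with depth per nucleus as a covariate -0.68 (adjusted p = 0.142). Without old replicate 1, 2 or 4 the edgeR log2 fold change was -0.71, -0.73 and -0.72 (adjusted p = 0.103, 0.221 and 0.209), and without long-term replicate 1, 2 or 4 it was -0.68, -0.63 and -0.70 (adjusted p = 0.0629, 0.194 and 0.134).

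No other subunit pair was called for long-term restriction over all libraries. Of the 43 estimates 17 were higher and 26 lower, with a median log2 fold change of -0.07, and 5 pairs, all lower, reached an unadjusted p below 0.05, against 4.71% of all pairs. The groups did not overlap, with restricted mice lower, in 4 pairs (background 3.76%): Grik2 and Grik4 in oligodendrocyte-like, Grik4 in inhibitory-like and Grik5 in astrocyte-like nuclei. Grik4 in inhibitory-like nuclei was at 73.8, 84.4, 96.5 and 70.2 CPM after long-term restriction, below the 102 to 104 CPM of old ad libitum mice. No pair was higher without overlap (background 3.57%). Grik4 in astrocyte-like nuclei was at 36.6, 54.9 and 64.1 CPM in old ad libitum mice and 19.4, 24.1, 41.0 and 18.6 CPM after long-term restriction, at -1.06 (edgeR adjusted p = 0.897), and the groups overlapped. Over the libraries not numbered 1 this pair was called, at -1.30 (edgeR adjusted p = 0.0463). After thinning, 3.90% of astrocyte-like nuclei had a Grik4 UMI (6.92% unthinned), close to the 3.72% of microglia-like nuclei (3.45% unthinned).

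The third contrast set acutely restricted mice against the same old ad libitum mice. Grik2 in oligodendrocyte-like nuclei fell and was the 1 pair of 43 called, where 0.213% of all pairs were called in either direction and 0.12% were called lower, with 1.84% of genes called in oligodendrocyte-like nuclei. It was at 1357, 1365 and 1465 CPM in old ad libitum mice and 985, 1054 and 1148 CPM after acute restriction, without overlap, at a log2 fold change of -0.46 (SE 0.12, 0.726-fold; edgeR adjusted p = 0.0434). The call lay close to the threshold. Leaving out any of the 6 mice of the contrast ended it (log2 fold changes from -0.52 to -0.37). So did DESeq2 (-0.45, adjusted p = 0.0574), and in edgeR library totals as the scale (-0.39, adjusted p = 0.0994) and the restriction to libraries not numbered 1 (-0.37, adjusted p = 0.336). With the gene length trend removed it was -0.16 (edgeR adjusted p = 0.749), and with depth per nucleus as a covariate -0.31 (adjusted p = 0.770). Long-term restricted mice held 1191, 1229, 1270 and 1263 CPM of Grik2 there, and young mice 1357, 1016 and 1399 CPM. The median oligodendrocyte-like nucleus held 1578 to 1891 UMIs after acute and 1673 to 2300.5 after long-term restriction, against 1990 to 3169 in old ad libitum mice, and the 8 granule markers summed to 4161 to 4252, 3961 to 4538 and 4413 to 4580 CPM there. The part of granule RNA in these sums, and in the Grik2 and Grik4 results under restriction, was not tested.

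Grik4 in oligodendrocyte-like nuclei was at 160, 128 and 94.1 CPM after acute restriction, all below the old ad libitum mice, at -0.57 (edgeR adjusted p = 0.0922). Of the 43 estimates for acute restriction 11 were higher and 32 lower, with a median log2 fold change of -0.12, and 4 pairs, all lower, reached an unadjusted p below 0.05, against 4.89% of all pairs. Of pairs spanning at least 200 kb, 43.8% were higher after acute and 43.1% after long-term restriction. In oligodendrocyte-like nuclei, the class of both restriction calls, 190 of 892 such genes were higher after acute restriction and 62 were called, and 216 were higher after long-term restriction and 17 were called. The groups were apart in 5 pairs with restricted mice lower (background 6.53%) and in 1 with them higher (background 5.75%). The latter was Grik2 in oligodendrocyte precursor-like nuclei, which overlapped in unscaled CPM, at 1597 to 1746 after acute restriction and 1427 to 1606 in old ad libitum mice.

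The last contrast set long-term against acutely restricted mice. No subunit pair was called by edgeR or by DESeq2, where edgeR called 0.0102% of all pairs, and 3 of 43 reached an unadjusted p below 0.05, against 3.09% of all pairs. These were Grik2 in oligodendrocyte-like nuclei, at a log2 difference of 0.26 with long-term mice higher, Grik3 in oligodendrocyte precursor-like nuclei at 0.39, and Grik4 in inhibitory-like nuclei at -0.28. Of the 43 estimates 25 were higher in long-term mice, with a median of 0.03. The groups were apart with long-term mice higher in 2 pairs, Grik2 in oligodendrocyte-like and in mural-like nuclei (background 2.57%), and with them lower in none (background 2.25%), although Grik2 in endothelial-like nuclei was lower without overlap in unscaled CPM. In the inhibitory subtypes fitted alone, no pair was called in any restriction contrast by edgeR (background 0.0%), with 2, 0 and 3 of 24 pairs at an unadjusted p below 0.05 for long-term restriction, acute restriction and long-term minus acute. Over all genes, 232 to 293, 214 to 295 and 163 to 254 per subtype were at an unadjusted p below 0.05, of 6561 to 9237 tested.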

How the data were processed

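The authors deposited UMI counts per gene and barcode for 13 libraries, made with Cell Ranger 4.0.0 and build mm10 per the submitters' processing notes. The counting of introns, the use of strand and any correction for free RNA are not given in the sources used here. Barcodes under 500 genes or above 5% mitochondrial UMIs were left out (105427 of 105759 stayed), and 7386 doublets were removed by Scrublet score. Clusters (2000 variable genes, 30 components, 20 neighbours, Leiden resolution 1; scanpy 1.11.5, leidenalg 0.10.2, Python 3.11.15, pandas 2.3.3) were named from at least 3 raised markers. Sums of the raw counts over the nuclei of a class in a mouse (at least 20 nuclei, at least 2 mice in each group) were fitted with edgeR 4.0.16 in R 4.3.3 (TMM, filterByExpr, group only, all 13 mice, prior count 2 for log2 CPM), adjusted over all genes of the class. DESeq2 1.42.0 was an alternative. The fit was tested on simulated data, and a pair that was not called is not thereby shown to be unchanged. Labels do not say how replicate numbers arose, and p-values measure the spread between mice.

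The members and lists were chosen with earlier results of these data known. Named were all members, the partner genes called (at most 10 per contrast) and the 3 genes most like each member. The inhibitory subtypes (resolution 0.3), library totals as a scale and the length of 200 kb were chosen after seeing the data.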

Additional observations from a re-analysis of the deposited data

Results flagged for a closer look

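Of 40 groups of 4 long-term restricted mice examined, 1 for each subunit and class, 2 held a mouse far from the other 3, and chance flags about 1 group in 20. Both were long-term replicate 1, a library numbered 1. Grik1 in its oligodendrocyte-like nuclei was at 8.28 on the log2 CPM scale (98 UMIs), above the 7.97 to 8.0 of the others. Grik3 in its CA3-like nuclei was at 3.16 (42 UMIs), below the 4.88 to 5.10 of the others.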

How the results depend on the processing

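The count of subunit pairs called depended on the setting. For ageing it was 3, and 5 with DESeq2, 6 without the filter on low counts, 9 with a term for the libraries numbered 1, 7 over the libraries not numbered 1, 1 with depth per nucleus as a covariate and 1 with the gene length trend removed, the last a different pair (Grik2 in oligodendrocyte-like nuclei). Leaving out each mouse of the contrast gave 1 to 4. For long-term restriction it was 1, and over the libraries not numbered 1 also 1 but a different pair (Grik4 in astrocyte-like nuclei), and 0 with the depth covariate, the length trend removed or doublets kept, and 0 to 1 with each mouse left out. For acute restriction it was 1, and 0 with DESeq2, library totals, libraries not numbered 1, the depth covariate, the length trend removed or doublets kept, 2 without the filter, 2 with the 2 groups alone, and 0 with each mouse of the contrast left out. Long-term minus acute gave 0 in every setting run. The share of all genes called in each setting was not set beside these counts or those of the replicate block below. A higher or lower count therefore cannot be read as particular to the subunits. Calls of other genes moved as well: for ageing, 5.71% of pairs spanning at least 200 kb were called, and 1.68% with the length trend removed. Each subunit kept its highest class with nuclei thinned and with doublets kept.

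With the replicate number as a block the counts were 8, 1, 1 and 0. The block adds 5 ageing pairs. Same-numbered old and young mice correlated at 0.446 and -0.173 in granule-like nuclei, so the numbers were not taken as pairs, although libraries numbered 1 correlated at 0.394 to 0.686 between groups there. Old and long-term mice numbered 4 also correlated there, at 0.424, while mice numbered 2 or 3 lay between -0.173 and 0.138. Old and long-term mice correlated at 0.101 to 0.177 in oligodendrocyte-like nuclei, where the blocked Grik4 change was -0.76 (edgeR adjusted p = 0.0112).

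Of all pairs of a gene and a class, 903 were called higher and 722 lower with age with TMM, and 542 and 787 with library totals, which moved the median of all genes in granule-like nuclei from -0.04 to -0.21. Groups of 3 or 4 mice and low sums limit the precision: among the called pairs the lowest sum was 9 UMIs, and among other tested pairs 1 UMI. The causes of these shifts were not tested.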

Other observations

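Several clusters that the markers did not name held high subunit levels. The cluster led by Pappa, Trpc6 and Bdnf had 3674 ± 390 CPM of Grik2 (n = 13), and that led by Hs3st2 and Hs3st4 had 472 ± 52.3 CPM of Grik3 and 330 CPM of Grik4 (n = 12). The cluster led by Atp10b and Npsr1 had 589 ± 48.6 CPM of Grik4 and 151 CPM of Grik3 (n = 12), while the cluster led by Stac and Rab38 had 9.43 ± 5.82 CPM of Grik4 and 198 CPM of Grik1 (n = 11). A cluster led by Gabra6 and Fat2 came from 1 mouse (31 nuclei) and held 4810 CPM of Grik2 and no UMI of Grik1 or Grik3.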
